A study of Mus musculus with 24 samples.

Results

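The Kruppel-like factors described here are 10 genes of the Klf family, Klf2, Klf3, Klf4, Klf5, Klf6, Klf7, Klf9, Klf10, Klf13, and Klf15, of 56941 genes listed for C2C12 muscle tissues after daily optical exercise. They were taken by gene name from a list that was selected from the family with earlier results of these same libraries known, and the list states no value that a gene had to reach. Their differences between conditions are therefore given as descriptions with standard errors. Where a gene of the 10 is said to lie past the threshold of the fit across all genes, this sorts the values and is no independent evidence of a difference. The files also list 7 other Klf genes, Klf1, Klf8, Klf11, Klf12, Klf14, Klf16, and Klf17, which are set beside the 10.

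C2C12 is a mouse myoblast line that fuses into contractile myotubes, and here every tissue carried ChR2::tdTomato, a channel that opens under blue light joined to a red fluorescent protein. All tissues were grown on fibrin hydrogel and differentiated for about 2 weeks in medium with inactivated horse serum and IGF-1. Each of the 4 conditions, an unstimulated control and stimulation at 1, 4, and 10 Hz for 60 min a day, had 6 libraries described as biological replicates. The time from the last stimulation to RNA extraction is not given in the sources used here, and light and contraction cannot be told apart in this design.

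Kruppel-like factors are transcription factors that share a run of zinc fingers at the carboxyl end and bind GC-rich and CACCC elements, as the related SP factors do. Their other ends differ, so that Klf2, Klf4, Klf5, Klf6, and Klf7 often act as activators, Klf3, Klf8, and Klf12 recruit the corepressor CtBP, and Klf9, Klf10, Klf11, Klf13, Klf14, and Klf16 recruit Sin3A. Several are early response genes. In muscle, Klf2 and Klf4 are known as targets of ERK5 and MEF2 during differentiation, Klf5 takes part in myogenic differentiation, and Klf15 is a glucocorticoid-responsive regulator of amino acid and fat use.

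RefSeq windows of promoter sequence on GRCm38.p6 were matched by symbol for 8 of the 10 genes, and Klf5 and Klf10 have no entry there. The 250 bases before the start are printed 5′ to 3′ on the strand of the gene for Klf7, Klf6, and Klf15, 3 genes with higher levels at 4 Hz, and for Klf2, the 1 window of the 8 with a MEF2 site. Capitals mark the motifs found on either strand, the CACCC box (CCACCC), the GC box (CCGCCC), and the MEF2 site. The windows lie at chr1:64121390-64121639 (minus strand) for Klf7, chr13:5861239-5861488 (plus strand) for Klf6, chr6:90462326-90462575 (plus strand) for Klf15, and chr8:72318812-72319061 (plus strand) for Klf2.
Klf7: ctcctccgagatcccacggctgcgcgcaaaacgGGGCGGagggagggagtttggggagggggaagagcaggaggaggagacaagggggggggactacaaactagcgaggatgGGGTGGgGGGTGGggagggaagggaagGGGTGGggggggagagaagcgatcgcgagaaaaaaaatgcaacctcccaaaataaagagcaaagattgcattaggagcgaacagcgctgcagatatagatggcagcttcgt
Klf6: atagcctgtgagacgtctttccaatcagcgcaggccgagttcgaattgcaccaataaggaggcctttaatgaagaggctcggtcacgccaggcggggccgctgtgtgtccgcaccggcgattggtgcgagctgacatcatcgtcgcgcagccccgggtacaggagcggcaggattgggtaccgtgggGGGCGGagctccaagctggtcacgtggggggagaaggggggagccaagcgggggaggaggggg
Klf15: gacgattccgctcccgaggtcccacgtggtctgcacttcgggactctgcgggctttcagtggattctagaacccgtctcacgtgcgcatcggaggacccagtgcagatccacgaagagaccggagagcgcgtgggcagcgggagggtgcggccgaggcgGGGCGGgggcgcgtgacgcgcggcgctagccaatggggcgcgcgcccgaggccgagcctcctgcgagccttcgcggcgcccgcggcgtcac
Klf2: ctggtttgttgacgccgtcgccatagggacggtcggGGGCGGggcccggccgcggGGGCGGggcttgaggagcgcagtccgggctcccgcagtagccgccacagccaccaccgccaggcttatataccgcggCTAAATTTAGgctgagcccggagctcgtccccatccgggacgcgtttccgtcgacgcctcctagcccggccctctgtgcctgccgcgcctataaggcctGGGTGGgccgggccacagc

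The window of Klf7 held 3 CACCC boxes and 1 GC box, and those of Klf6 and Klf15 held 1 GC box each. Klf2 had 2 GC boxes, 1 CACCC box, and the MEF2 site at bases -118 to -109 from the start. Of the 8 windows, 7 held a GC box (all but Klf9) and 4 a CACCC box (Klf2, Klf3, Klf7, and Klf13), against 32.7% and 28.1% of 32851 RefSeq windows of the same length. In Klf13, a GC box and the CACCC box overlap. The MEF2 site was in 2.92% of all windows. No window of the 8 held the cyclic AMP response element TGACGTCA (1.55% of all windows), the CArG box that serum response factor binds (1.47%), or the hexamer AGAACA that the glucocorticoid receptor binds (16.1%). These windows were also rich in G and C, at 59.2% in Klf7, 64.8% in Klf6, 72.0% in Klf15, and 71.2% in Klf2, beside a median of 52.4% over all windows.

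Total estimated counts per library ran from 8052369 to 18159144, with 1 Hz replicate 4 the deepest. Genes of the mitochondrial genome took 0.876% of TPM in 4 Hz replicate 1 and 12.6% in 4 Hz replicate 3, the lowest and highest of the 24 libraries. The 8 myotube markers (such as Ckm, Acta1, and Ttn) summed to 11177 to 18163 TPM over all libraries. Of the 6 myoblast markers, Itga7 (mean 325 TPM), Myod1 (118), and Ncam1 (116) were the highest, while Myf5 (15.8) and Pax7 (1.07) added little. Summed TPM of these 6 markers moved with the condition. Control libraries had 697 to 819 TPM of it and 10 Hz libraries 682 to 761, but 1 Hz libraries only 420 to 603 and 4 Hz libraries 389 to 571, and the part of this in the Klf values below was not tested. On log2(TPM + 1), the median difference of all genes from control was itself -0.14 at 1 Hz and -0.21 at 4 Hz. Among other cell types, the 5 endothelial markers summed to at most 1.08 TPM and the 5 adipocyte markers to at most 1.34 TPM. The 5 fibroblast markers summed to 292 to 564 TPM in all, with overlapping ranges between conditions. The 5 macrophage markers summed to 55.2 to 102 TPM, almost all of it Cd68, while Ptprc was at 0 in 22 and Adgre1 in 23 of the 24 libraries. In bulk tissue, fewer cells of a type and less RNA per cell cannot be told apart.

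All 10 genes passed the filter on low counts, and 13315 genes were tested. The threshold was a log2(fold change) beyond 0.5 on either side together with a Benjamini-Hochberg adjusted p under 0.05 from the quasi-likelihood test of edgeR. Stimulation at 1 Hz left 3 of the 10 past it on the higher side, Klf5, Klf7, and Klf15, and 0 on the lower side. Among all genes, 7.19% were higher and 7.74% lower. At 4 Hz, Klf6 joined these 3 and again none was lower, where 12.8% of all genes were higher and 12.3% lower. At 10 Hz, 0 of the 10 were past the threshold in edgeR and 0 in DESeq2, and 3 (Klf4, Klf7, and Klf10) had an unadjusted p under 0.05. Few genes of any kind passed at 10 Hz, 0.015% higher and 0.0225% lower, with 8.07% at an unadjusted p under 0.05. Since the 10 were chosen with these contrasts known, nothing is read from their counts. The median log2(fold change) of the 10 came to 0.28, 0.36, and -0.0016 in order of frequency, where all genes tested had 0.04, 0.06, and 0.0067.

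Every library lay above every control for Klf5 and Klf7 at both 1 and 4 Hz, as for 5.55% of all genes at 1 Hz and 12.9% at 4 Hz. Klf3 at 4 Hz was the reverse case, with every library below every control, as for 14.7% of all genes. No Klf gene of the 10 lay wholly below the controls at 1 Hz, where 8.58% of all genes did. At 10 Hz, none of the 10 was separated from the controls in CPM, against 0.774% of all genes wholly above and 0.864% wholly below. In TPM, Klf5 overlapped the controls (63.8 to 81.4 TPM) at 1 Hz (71.6 to 100.5) and 4 Hz (75.4 to 103.6). Every Klf4 library at 10 Hz lay above every control in TPM, at 136.39 to 167.71 against 115.36 to 136.23.

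**Figure D1:**
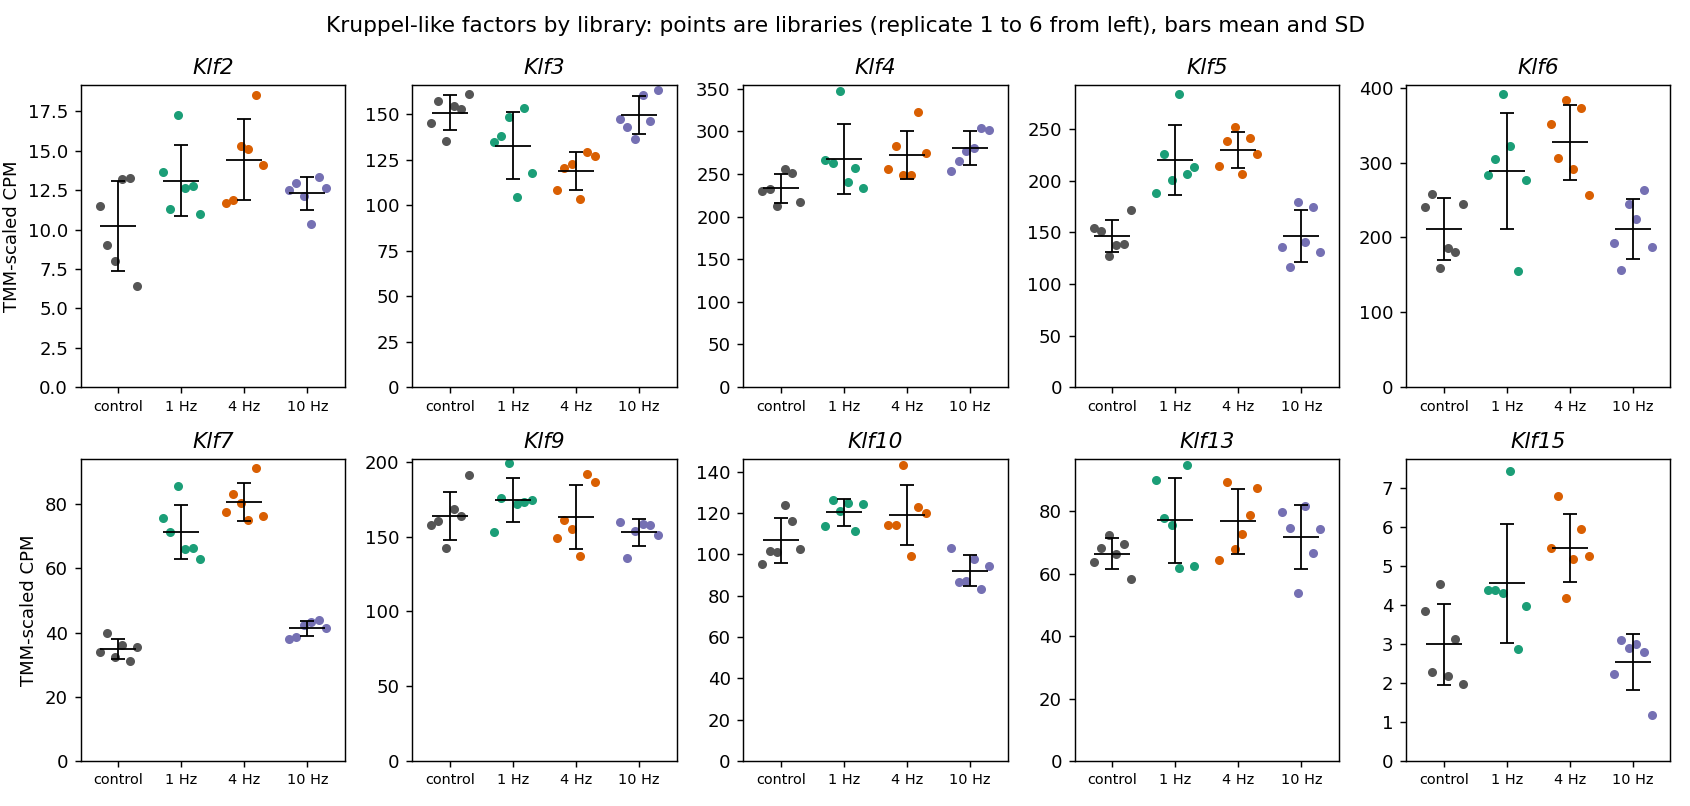
TMM-scaled counts per 1000000 (CPM) of each Kruppel-like factor (vertical axis, from 0) in the 6 libraries of each condition, with the mean and SD as bars. Klf7 and Klf5 at 1 and 4 Hz sit wholly above the controls, while at 10 Hz the points of all 10 genes overlap them.

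Klf7 had the largest difference from control of the 10 at both 1 and 4 Hz. This factor is broadly expressed and best known for its part in the outgrowth of axons, and its gene lies on chromosome 1 from 64068606 to 64161508 (GRCm39, minus strand). Control libraries held 31.3 to 40.0 CPM (median 34.8). The range was 62.9 to 85.6 (median 68.7) at 1 Hz, 75.0 to 91.2 (median 79.1) at 4 Hz, and 37.8 to 43.8 (median 41.9) at 10 Hz. In CPM the 1 and 4 Hz libraries thus left a wide gap to the controls. The 10 Hz libraries lay at the upper edge of the control range, 4 of 6 above all of it. In TPM the gap was narrow, with controls up to 10.99, 1 Hz libraries from 11.09, and 4 Hz libraries from 12.77. From control to 1 Hz the log2(fold change) came to 1.03 ± 0.08 (SE, n = 6 per condition), or 2.04-fold. From control to 4 Hz it came to 1.20 ± 0.08, or 2.30-fold, and from control to 10 Hz to 0.24 ± 0.08. It stayed past the threshold at 1 and 4 Hz whichever 1 of the 12 libraries compared was left out.

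Klf5, an activator with roles in proliferating epithelium and in muscle cell differentiation, is on chromosome 14 from 99536086 to 99552473 (plus strand). Its control libraries ranged from 127 to 172 CPM (median 145), its 1 Hz libraries from 189 to 285 (median 209.9), and its 4 Hz libraries from 206 to 253 (median 232). At 10 Hz, values of 116 to 179.5 (median 138) covered the control range. On the log2 scale its difference from control came to 0.58 ± 0.10 under 1 Hz, 0.65 ± 0.10 under 4 Hz, and -0.0060 ± 0.10 under 10 Hz. One library, 1 Hz replicate 4, was the highest of all, and without it the 1 Hz difference was 0.47 and no longer past the threshold.

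Klf6 is an early response factor linked to wound repair and growth arrest, encoded on chromosome 13 from 5911481 to 5920393 (plus strand). Its level varied more between libraries of a condition. Controls ran from 159 to 257 CPM (median 213), 1 Hz libraries from 156 to 392 (median 293), 4 Hz libraries from 257 to 383 (median 329), and 10 Hz libraries from 156 to 263 (median 209). At 4 Hz, 5 of 6 libraries were above every control, and at 1 Hz 5 were above and 1, replicate 5, was below every control. Fitted differences (log2) were 0.45 ± 0.17 under 1 Hz, 0.63 ± 0.17 under 4 Hz, and 0.0028 ± 0.17 under 10 Hz. Without 1 Hz replicate 5 the 1 Hz difference was 0.58, and without control replicate 2 it was 0.52, both past the threshold.

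Klf15, the regulator of amino acid use, was the lowest of the 10, and its gene spans 90438998 to 90452220 on chromosome 6 (plus strand). It had 14 to 122 estimated counts per library. Controls held 1.97 to 4.53 CPM (median 2.70), 1 Hz libraries 2.86 to 7.44 (median 4.35), 4 Hz libraries 4.18 to 6.79 (median 5.36), and 10 Hz libraries 1.19 to 3.09 (median 2.84). Only 1 library at 1 Hz was above every control, replicate 4, whereas 5 of 6 were at 4 Hz. Against control, the log2 difference reached 0.64 ± 0.23 under 1 Hz and 0.89 ± 0.23 under 4 Hz, and it was -0.24 ± 0.24 under 10 Hz. At 1 Hz it was no longer past the threshold without 1 Hz replicate 4 (0.40) or without control replicate 2 (0.57), 4 (0.54), or 6 (0.55). At 4 Hz it stayed past it in all 12 such fits.

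The remaining activators, Klf2 and Klf4, differed less. Klf2, known from endothelium under flow, was at 6.39 to 13.3 CPM in the controls (median 10.3), 11.0 to 17.3 at 1 Hz (median 12.7), 11.7 to 18.6 at 4 Hz (median 14.6), and 10.3 to 13.3 at 10 Hz (median 12.6). All conditions overlapped the controls, with log2 differences of 0.34 ± 0.15, 0.49 ± 0.15, and 0.26 ± 0.15 in order of frequency. At 4 Hz it came past the threshold without control replicate 1 (0.52), 4 (0.56), or 5 (0.56), or without 4 Hz replicate 1 or 2 (0.54 each). Klf4, a factor of cell reprogramming, ran from 212 to 256 CPM in the controls (median 231), 233 to 348 at 1 Hz (median 259.7), 248 to 323 at 4 Hz (median 265), and 254 to 304 at 10 Hz (median 279). It was 0.20 ± 0.08, 0.22 ± 0.08, and 0.27 ± 0.08 above control on the log2 scale, so 10 Hz was at least as high as 1 and 4 Hz for this gene, with differences between frequencies of 0.07 ± 0.08 (10 minus 1 Hz) and 0.04 ± 0.08 (10 minus 4 Hz).

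Klf3, the repressor that binds CtBP, was the 1 gene of the 10 with a lower mean CPM than the controls at both 1 and 4 Hz. Controls were at 135 to 161 CPM (median 154), 1 Hz libraries at 104 to 153 (median 136), 4 Hz libraries at 104 to 129 (median 122), and 10 Hz libraries at 137 to 163 (median 147). The 4 Hz libraries were all below the controls, while 3 of 6 at 1 Hz were, and 10 Hz overlapped them. Its log2 difference from control, -0.19 ± 0.08 under 1 Hz, -0.35 ± 0.08 under 4 Hz, and -0.01 ± 0.08 under 10 Hz, stayed short of 0.5 in size.

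The Sin3A-binding genes Klf9, Klf10, and Klf13 overlapped the controls at every frequency. Klf9, which responds to glucocorticoids and thyroid hormone, had a log2(fold change) of 0.09 ± 0.08 at 1 Hz, -0.0048 ± 0.08 at 4 Hz, and -0.10 ± 0.08 at 10 Hz, from control values of 142 to 191 CPM. Klf10, the TGF-beta-inducible early gene also called TIEG1, was at 95.6 to 124 CPM in the controls (median 102), 111 to 126 at 1 Hz (median 123), 99.4 to 143 at 4 Hz (median 117), and 83.3 to 103 at 10 Hz (median 90.7). It lay 0.17 ± 0.08 and 0.15 ± 0.08 above control at 1 and 4 Hz on the log2 scale, and its 10 Hz difference was -0.21 ± 0.08. Klf13, a factor also known from T cells and heart development, was 0.21 ± 0.11, 0.21 ± 0.11, and 0.11 ± 0.11 above control, from control values of 58.4 to 72.6 CPM.

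**Figure D2:**
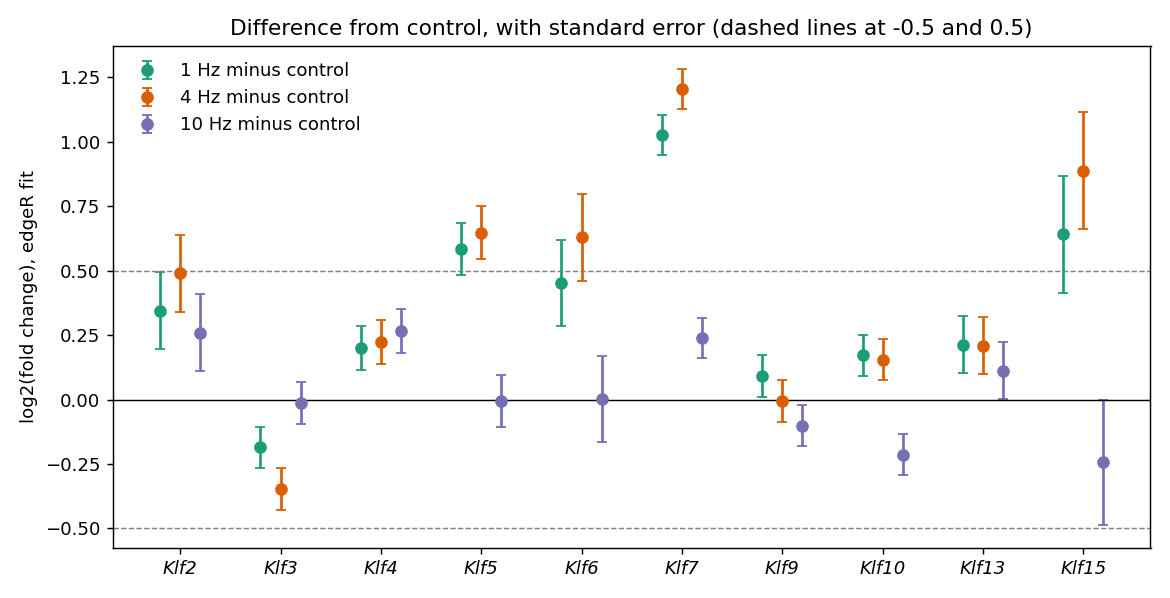
Log2(fold change) from control in edgeR (vertical axis) with its standard error for the 10 Kruppel-like factors at 1, 4, and 10 Hz, with dashed lines at -0.5 and 0.5. Klf7 reaches 1.03 and 1.20 at 1 and 4 Hz, Klf3 is below 0 at both, and all 10 Hz values lie between -0.24 and 0.27. On the TPM scale, Klf4, Klf9, and Klf10 at 1 Hz and Klf4, Klf10, and Klf13 at 4 Hz have the opposite sign, as does Klf6 at 10 Hz.

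The direct comparisons of frequencies followed the same genes. Between 4 and 1 Hz, none of the 10 was past the threshold, as none of all genes was (0.0%) in edgeR. One of the 10, Klf7, had an unadjusted p under 0.05 there, at 0.18 ± 0.08 higher at 4 Hz, and 11.0% of all genes did. Values of other tools for this contrast were not kept. At 10 Hz against 1 Hz, Klf5 (-0.59 ± 0.10), Klf7 (-0.79 ± 0.08), and Klf15 (-0.88 ± 0.24) were lower at 10 Hz and past the threshold, beside 4.99% of all genes on that side. At 10 Hz against 4 Hz, Klf6 (-0.63 ± 0.17), Klf5 (-0.65 ± 0.10), Klf7 (-0.97 ± 0.08), and Klf15 (-1.13 ± 0.24) were, beside 10.6% of all genes. In CPM, every 10 Hz library was below every 4 Hz library for Klf5, Klf7, and Klf15, as for 8.1% of all genes. Against 1 Hz this held for Klf5, Klf7, and Klf10, as for 2.67%, and no gene of the 10 lay wholly above, as 5.03% did. In TPM, the 10 Hz range of each of these genes overlapped the 1 or 4 Hz range it was set against. Klf10 at 10 Hz differed by -0.39 ± 0.08 from 1 Hz, and Klf3 was 0.33 ± 0.08 higher at 10 Hz than at 4 Hz with all 6 libraries above, as for 10.8% of all genes. These contrasts share libraries with those against control and are not independent of them.

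Since CPM does not account for length, levels were compared between genes in TPM, which is per length. In the controls Klf4 was the highest at 124 ± 8.88 TPM (SD, n = 6), followed by Klf6 at 84.3 ± 17.4, Klf3 at 77.2 ± 3.77, Klf5 at 69.6 ± 6.39, Klf10 at 57.3 ± 6.30, and Klf9 at 57.2 ± 5.28. Below these came Klf13 at 16.1 ± 1.58, Klf2 at 9.28 ± 2.56, Klf7 at 8.57 ± 1.62, and Klf15 at 2.25 ± 0.83. Klf4 was above every library of Klf6, Klf9 above Klf13, Klf13 above Klf2, and Klf7 above Klf15, while the other neighbours in this order overlapped. At 1 and 4 Hz, Klf4 and Klf6 overlapped (125.7 ± 31.1 and 102 ± 31.6 TPM at 1 Hz, 117 ± 24.3 and 109 ± 13.8 at 4 Hz). Klf5 moved ahead of Klf3 in the order of means at both frequencies, with 87.3 ± 12.1 against 49.8 ± 7.03 TPM at 4 Hz. Klf7 moved ahead of Klf2 at both, with 16.1 ± 2.44 against 10.5 ± 2.23 TPM at 4 Hz, and at 10 Hz the 2 were at 10.4 ± 1.86 and 11.0 ± 0.96. The 10 together summed to 506 ± 22.4 TPM in control libraries. With stimulation the sum was 530 ± 93.8 TPM under 1 Hz, 504 ± 70.2 under 4 Hz, and 513 ± 33.5 under 10 Hz. Ranges overlapped, at 467 to 525 TPM in control, 395 to 626 at 1 Hz, 417 to 598 at 4 Hz, and 469 to 555 at 10 Hz.

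**Figure D3:**
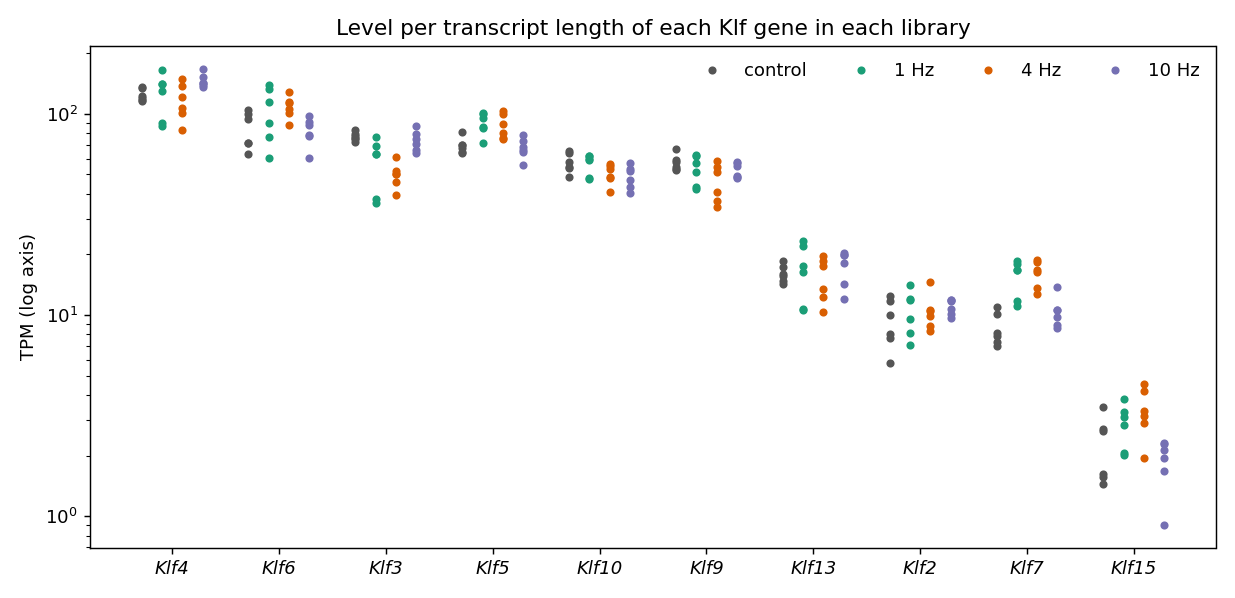
TPM of the 10 Kruppel-like factors in each of the 24 libraries (vertical log axis), ordered by the mean of the controls. Klf4 stands apart at the top in control and at 10 Hz, and Klf15 is the lowest in every condition, at 2.25 TPM on average in the controls.

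On log2(TPM + 1), the median of all genes was itself shifted by -0.14 at 1 Hz and -0.21 at 4 Hz against -0.01 at 10 Hz. The TPM difference of Klf7 was 0.78 at 1 Hz and 0.84 at 4 Hz, or 0.92 and 1.05 above that median. For Klf5 the difference of 0.36 at 1 Hz and 0.32 at 4 Hz came to 0.50 and 0.53 above the median. Klf6 was 0.38 and 0.59 above it and Klf15 0.41 and 0.64. Klf3 had -0.47 and -0.63, or -0.33 and -0.42 relative to the median. Only Klf7, and at 4 Hz Klf3 on the lower side, passed the threshold on this scale. Of 13422 genes there, 205 passed higher and 1707 lower at 1 Hz, and 336 and 3164 at 4 Hz. Klf4, Klf9, and Klf10 at 1 Hz and Klf4, Klf10, and Klf13 at 4 Hz were below 0 on this scale and above 0 in edgeR, and relative to the median of all genes these 6 values were above 0, at 0.03 to 0.13. Klf6 at 10 Hz, at 0.0028 in edgeR, was between -0.03 and -0.00022 in the 9 other settings without a library left out.

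Across the 24 libraries, deviations of log2 CPM from the condition mean gave Pearson's r between -0.59 and 0.72 for the 45 pairs of the 10 genes, with a median of 0.11. The highest was Klf4 with Klf7 (r = 0.72, rho = 0.69) and the lowest Klf3 with Klf15 (r = -0.59, rho = -0.49). Klf6 went with Klf7 (r = 0.61) and Klf5 (r = 0.56), and against Klf13 (r = -0.56), which also ran against Klf5 (r = -0.58). The members of a pair share library, depth, and scaling factor, and 30 pairs were above 0 and 15 below, so these values are a description only.

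**Figure D4:**
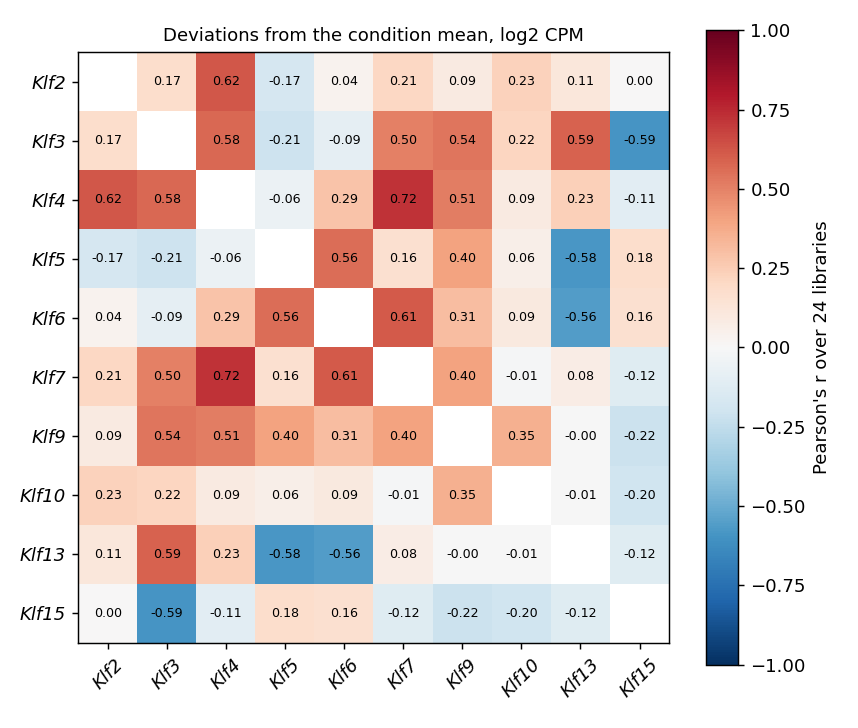
Pearson's r between Kruppel-like factors over 24 libraries, from deviations of log2 CPM from the mean of the condition, with the value printed in each cell. Klf4 with Klf7 is the highest at 0.72 and Klf3 with Klf15 the lowest at -0.59.

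Of the 7 other Klf genes in the files, 3 passed the filter on low counts. Klf11, the relative of Klf10 also called TIEG2, was at 14.4 to 19.9 CPM in the controls (median 16.8), 23.7 to 42.5 at 1 Hz (median 32.4), 32.1 to 48.6 at 4 Hz (median 37.3), and 13.8 to 22.5 at 10 Hz (median 18.0). In CPM every 1 and 4 Hz library of Klf11 was above every control. In TPM this held at 4 Hz only, as 1 Hz libraries began at 6.58 and controls reached 7.37. Its log2(fold change) was 0.91 ± 0.14, 1.19 ± 0.14, and 0.07 ± 0.14, so this gene outside the list of 10 lay past the threshold at 1 and 4 Hz with a size near that of Klf7. Klf16, another Sin3A-binding gene, was past it at 1 Hz (0.57 ± 0.11) and not at 4 Hz (0.31 ± 0.11) or 10 Hz (0.46 ± 0.11). All 6 Klf16 libraries at 10 Hz were above every control, at 47.4 to 57.1 CPM against 34.2 to 39.4. On log2(TPM + 1) Klf16 was at 0.34 at 1 Hz, no longer past the threshold, and at -0.04 at 4 Hz. Klf12 was at most at 1.63 CPM in any library, with differences of -0.10 ± 0.32, 0.40 ± 0.31, and -0.16 ± 0.32. Klf1 and Klf8 reached at most 1.19 and 0.83 CPM, and Klf14 and Klf17 had at most 1 count in any library, and none of these 4 was tested. Klf8 had 0 to 2 counts per library at 4 Hz and 3 to 8 in the controls, with 5 of 6 libraries at 4 Hz below every control in CPM.

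Genes that work with Kruppel-like factors were described from 6 lists that were also made with earlier results known, each tested with adjusted p over all 13315 genes. Beside the counts of every list below stand the shares of all genes past the threshold. These were 7.19% higher and 7.74% lower at 1 Hz, and 12.8% higher and 12.3% lower at 4 Hz. No list was tested as a set, and nothing is read from its counts. Of the SP factors, the closest relatives, 6 of 9 passed the filter and 3 rose at both 1 and 4 Hz. Sp1, a general activator at GC boxes, went from 63.5 ± 8.21 CPM in the controls to 123 ± 29.8 at 1 Hz and 125 ± 21.8 at 4 Hz (0.96 ± 0.15 and 0.98 ± 0.15 on the log2 scale, edgeR adjusted p = 2e-05 and 7.37e-06). Sp8, known from limb development, went from 5.46 ± 1.49 CPM to 11.2 ± 2.60 and 12.5 ± 1.64 (1.05 ± 0.18 and 1.19 ± 0.18, edgeR adjusted p = 7.3e-05 and 8.29e-06). In CPM, all 6 libraries at each of these frequencies lay above every control for both. In TPM this held for Sp8, while Sp1 overlapped the controls at both frequencies. The median of the 6 was 0.48 at 1 Hz and 0.54 at 4 Hz.

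In the ERK5 and MEF2 pathway that acts upstream of Klf2 and Klf4, 0 of 8 rose, 2 fell at 1 Hz, and 1 fell at 4 Hz, with a median of -0.08 at 1 Hz and 0.03 at 4 Hz. Mef2a, a muscle transcription factor, was at 308 ± 9.98 CPM in the controls, 207 ± 25.2 at 1 Hz, and 190 ± 26.0 at 4 Hz (-0.57 ± 0.09 and -0.69 ± 0.09, edgeR adjusted p = 1.48e-05 and 5.29e-07). Map2k5, the kinase of ERK5, fell at 1 Hz (-0.55 ± 0.09, edgeR adjusted p = 3.88e-05) and at 4 Hz was just short of the limit on fold change (-0.49 ± 0.09).

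Hormone receptors and their targets, read for Klf9 and Klf15, had 8 of 10 tested, with medians of 0.31 at 1 Hz and 0.25 at 4 Hz. None was past the threshold at 1 Hz in edgeR, where 6 of 8 had an unadjusted p under 0.05, as did 46.9% of all genes tested. These 6 also had an edgeR adjusted p under 0.05, from 0.00489 (Nr3c1) to 0.0399 (Tsc22d3), and missed only the limit on fold change. The share of all genes with such an adjusted p alone is not given here. Nothing is therefore read from how many genes of a list had one, here or below. At 4 Hz, 6 of the 8 had an unadjusted p under 0.05 in edgeR, beside 57.2% of all genes. Thra (0.28 ± 0.08), Esr1 (0.38 ± 0.12), and Nr3c1 (0.22 ± 0.09) were higher with an edgeR adjusted p under 0.05, short of the limit on fold change. Only Per1, a clock gene that glucocorticoids induce, rose past the threshold (from 145 ± 8.56 to 232 ± 43.8 CPM, 0.68 ± 0.11, edgeR adjusted p = 2.19e-05). On log2(TPM + 1) it was 0.35 ± 0.16 and did not pass. Fkbp5 of the same list was lower at both frequencies (-0.29 ± 0.09 and -0.32 ± 0.09) without reaching the limit on fold change. Of the 8 genes, 6 were above 0 and 2 below at 1 Hz, and 5 and 3 at 4 Hz. Of amino acid genes that Klf15 is known to act on or near, 13 of 15 were tested. None passed at 1 Hz in edgeR (7 had an unadjusted p under 0.05, beside the same 46.9% of all genes). Of the 7, Got1 (0.21 ± 0.07), Bcat2 (0.28 ± 0.10), Glul (0.23 ± 0.09), and Bcat1 (-0.30 ± 0.10) had an edgeR adjusted p under 0.05 and missed only the limit on fold change. At 4 Hz 1 passed, on the lower side, Bcat1, which starts the breakdown of branched-chain amino acids (from 96.8 ± 8.52 to 67.1 ± 8.77 CPM, -0.53 ± 0.10, edgeR adjusted p = 0.000164). Of the 13, 7 were above 0 and 6 below at 4 Hz, with a median of 0.11. In edgeR 8 had an unadjusted p under 0.05 there, beside 57.2% of all genes. These 8 included Glul, Bcat2, Bckdha, and Bckdk, each with a higher mean CPM than the controls.

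Of 10 early targets of TGF-beta, the signal known to induce Klf10 and Klf11, 3 rose and 1 fell at 1 Hz, and 3 rose and 2 fell at 4 Hz. Ccn2, a matricellular growth factor, went from 585 ± 107 CPM to 1396 ± 299 at 1 Hz and 1183 ± 280 at 4 Hz (1.25 ± 0.17 and 1.02 ± 0.17, edgeR adjusted p = 4.92e-06 and 3.03e-05). Bambi, a decoy receptor, rose from 1.38 ± 0.51 CPM to 2.38 ± 0.67 and 2.66 ± 0.48 (0.81 ± 0.23 and 0.94 ± 0.23, edgeR adjusted p = 0.0069 and 0.00147). Pmepa1, an inhibitor of the pathway, fell from 234 ± 40.3 CPM to 106 ± 25.4 and 74.5 ± 25.7 (-1.14 ± 0.18 and -1.65 ± 0.19, edgeR adjusted p = 5.33e-05 and 3.57e-07). Ltbp2, a matrix protein, fell at 4 Hz (-0.57 ± 0.20, edgeR adjusted p = 0.0182).

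Among 14 cofactors and ubiquitin ligases of the family, 1 rose and 2 fell at 1 Hz, and 1 rose and 4 fell at 4 Hz, with medians of -0.17 and -0.26. Sin3a, the corepressor that Klf9, Klf10, and Klf13 bind, rose from 21.8 ± 1.78 CPM to 38.1 ± 6.70 at 1 Hz and 37.0 ± 3.51 at 4 Hz (0.81 ± 0.10 and 0.77 ± 0.10, edgeR adjusted p = 1e-06 and 8.97e-07), and on log2(TPM + 1) its 4 Hz difference of 0.38 did not pass. Fbxw7, which marks Klf5 for degradation, fell from 71.0 ± 6.89 CPM to 36.0 ± 5.69 and 33.9 ± 3.35 (-0.98 ± 0.10 and -1.07 ± 0.10, edgeR adjusted p = 3.93e-08 and 6.92e-09), with all libraries of both frequencies below every control. Smurf2, a ligase of the TGF-beta pathway, fell at both (-0.52 ± 0.11 and -0.67 ± 0.11, edgeR adjusted p = 0.000676 and 2.5e-05). At 10 Hz no gene of the 6 lists passed the threshold in edgeR, and 3 (Sp1, Per1, and Fbxw7) had an unadjusted p under 0.05. These were 1 of 6 SP factors, 1 of 8 hormone genes, and 1 of 14 cofactors and ligases, beside 8.07% of all genes.

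**Figure D5:**
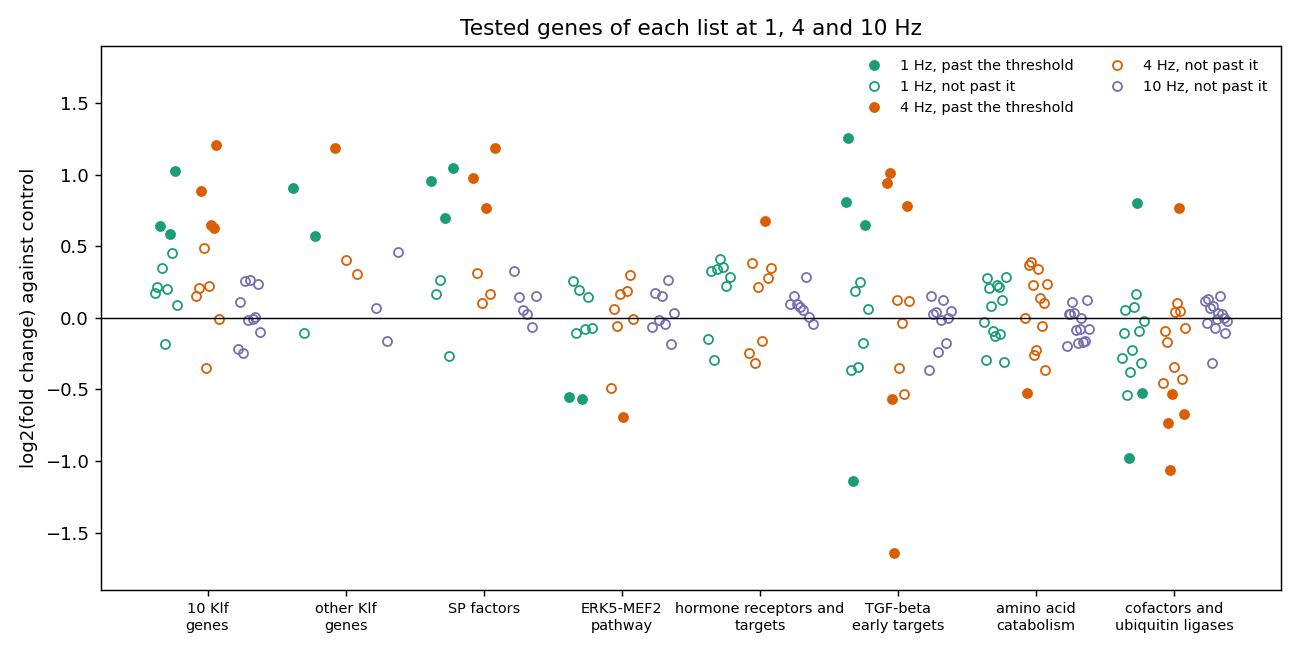
Log2(fold change) from control in edgeR (vertical axis) of each tested gene in the 10 Kruppel-like factors, the other Klf genes, and the 6 related lists at 1, 4, and 10 Hz. Filled points are past the threshold and open points are not, and the 10 Hz points are all open and lie between -0.36 and 0.46.

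Annotated genes on the opposite strand overlap 6 of the 10 Kruppel-like factors, Klf2, Klf3, Klf7, Klf9, Klf10, and Klf13, and 10 of the 13 genes named from the related lists. For Klf7 the overlapping gene is Gm13748 and for Klf2 it is Eps15l1. The methods describe a directional kit, which keeps the strand of the RNA, but how counting used strand is not given in the sources used here, so whether reads of the 2 strands were kept apart for these genes is unknown. Klf4, Klf5, Klf6, and Klf15 have no such overlap.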

How the data were processed

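RNA of optogenetic C2C12 muscle tissues from the 60-min experiment was sequenced by the authors in 24 libraries, 6 per condition. Per the labels, libraries were made after poly(A) selection, with ribodepletion for low-input samples that are not named. The authors processed the reads with nf-core/rnaseq and the Ensembl annotation of GRCm39, and deposited the estimated count of each gene as salmon gave it, not normalized, and the TPM of each gene, scaled for length and to 1000000 per library. The methods also name BWA-MEM, and whether it bears on these values is not stated. Of the estimated counts, 6.15% were not whole (off by more than 0.001).

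Estimated counts were rounded and genes kept by filterByExpr (minimum count 10, minimum total 15). Libraries were scaled by TMM, and a robust quasi-likelihood F test was run in edgeR 4.0.16 (R 4.3.3) in 1 fit of 24 libraries with a mean per condition. The biological coefficient of variation was 14.8%, which with 6 libraries per condition and 8052369 to 18159144 counts limits the precision. The lowest chi-square per degree of freedom between 2 libraries of a condition was 4.83, so none counted as a duplicate. CPM were TMM-scaled, with a prior count of 2 for log2 CPM. Alternatives were RLE factors, keeping every gene with a count, keeping only genes that reached 50 counts in 6 libraries (the strict filter), a block for the replicate number, a fit of only the 2 groups compared, DESeq2 1.42.0, and leaving out each library. TPM was also tested in limma 3.58.1 with pseudocounts of 1 and 0.1 on genes that reached 1 TPM in 6 libraries, and with the pseudocount of 1 on all genes with a value. The scripts were tested on simulated data.

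The 10 Klf genes and the related lists were chosen with earlier results of these data known. Named were every Klf gene and, from each related list, up to 2 genes per direction and frequency with the smallest p among those past the threshold. Gene positions come from GENCODE M39 on GRCm39 and promoter windows from RefSeq on GRCm38.p6, and the 2 builds were kept apart. Each of the 6 motifs was searched on both strands. Protein sequences were not used here.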

Additional observations from a re-analysis of the deposited data

Results flagged for a closer look

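In each of the 40 groups of 6 libraries (10 Klf genes in 4 conditions), the gap from the highest or lowest library to its neighbour was set against the range of the group, and 3 groups held a library that stood apart by Dixon's 95% limit. Chance gives about 1 in 20 such groups. Klf4 in 1 Hz replicate 3 was at 347.7 CPM, with a gap of 0.71 of the range. Klf9 in 10 Hz replicate 2 was at 135.93 CPM, the lowest of its group, with a gap of 0.65. Klf15 in 1 Hz replicate 4, the deepest library, was at 7.44 CPM with a gap of 0.67, and the 1 Hz difference of Klf15 was 0.40 without it in place of 0.64.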

How the results depend on the processing

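The 3 Klf genes past the threshold at 1 Hz, the 4 at 4 Hz, and the 0 at 10 Hz were the same genes with RLE factors, no filter, the strict filter, only the 2 groups compared, and DESeq2. With limma on log2(TPM + 1), log2(TPM + 0.1), and log2(TPM + 1) without a filter, the count was 1 at 1 Hz (Klf7) and 2 at 4 Hz (Klf7, and Klf3 on the lower side), and 0 at 10 Hz. Here the median of all genes was -0.14 at 1 Hz and -0.21 at 4 Hz on log2(TPM + 1) with the filter. In that fit, 205 of 13422 genes passed higher and 1707 lower at 1 Hz, and 336 and 3164 at 4 Hz. Leaving out 1 library at a time gave 1 to 4 genes at 1 Hz, 4 to 5 at 4 Hz, and 0 at 10 Hz. The lowest, 1 gene (Klf7), came without 1 Hz replicate 4. The cause was not tested. Of the list genes named, Per1 and Sin3a at 4 Hz were no longer past their threshold in the 3 fits on TPM, and Ltbp2 and Sp1 at 4 Hz only in the fit without a filter. Bambi was under 1 TPM in every library, so that fit was the only one of the 3 to hold it, and it did not pass there at 1 or 4 Hz. Outside the 10, Klf16 at 1 Hz was past the threshold in 6 of 9 settings without a library left out and not in the 3 on TPM.

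With the replicate block the counts were 3 at 1 Hz, 5 at 4 Hz (Klf2 came past the threshold at 0.50), and 0 at 10 Hz. The numbers were not taken to pair the libraries. Deviations of libraries with the same number correlated at -0.33 to 0.24, with a median of -0.02, and 0 libraries correlated best with their own number. Depth limits Klf15, at 14 to 122 counts per library, and the 4 Klf genes that did not pass the filter on low counts.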
